A study of Mus musculus with 5 samples.

Results

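Expression of 9 genes of cellular iron handling was examined, with the transferrin receptor Tfrc as the lead gene. They were Tfrc, Slc11a1, Slc11a2, Steap3, Slc40a1, Fth1, Hmox1, Aco1 and Ireb2. Each was taken from the probe set that the platform annotation pairs with that symbol alone, and all 9 had such a row among 17756 genes. Tfrc was chosen by its signal, which was higher after interferon-alpha than after vehicle, and the other 8 were listed with results of that contrast known. The differences of the 9 genes between the groups are therefore described without a test. Other genes of iron metabolism were tested in a fit across all genes. Their lists were drawn up from function, but also with earlier results of these data known.

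The 5 arrays (Affymetrix mouse) held RNA from VE-cadherin+ CD45+ cells, which came from the aorta-gonad-mesonephros (AGM) of C57Bl/6 embryos at E11.5 and were kept in medium with fetal serum. Definitive hematopoietic stem cells (HSCs) first appear in the AGM, and the labels call the sorted cells HSCs. The IFNa group (replicates 1, 2 and 3, n = 3) had 4 hours of interferon-alpha (IFNa) at 0.5 ng/ml. The vehicle group (replicates 2 and 3, n = 2) received vehicle for the same time. The protocol text names IFNa for every sample, so the groups rest on the titles and treatment labels. The sources used here do not give how many embryos went into a sample. RNA was amplified with a NuGen kit before labelling. Values are log2 signals made by the authors with RMA, which normalizes arrays and joins probes into 1 value per probe set, so that a difference of 1 is a factor of 2.

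Iron bound to transferrin enters a cell through the transferrin receptor, is released and reduced in the endosome, and is moved to the cytosol by a divalent metal transporter. Iron that is not used is stored in ferritin or exported by ferroportin. The iron regulatory proteins IRP1 and IRP2 bind stem-loops in messenger RNAs when iron is scarce, which stabilises the transferrin receptor messenger and blocks translation of ferritin and ferroportin. Dividing cells and erythroid precursors are known for high transferrin receptor, and macrophages for high ferroportin, heme oxygenase and SLC11A1.

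Tfrc encodes transferrin receptor 1, the main route of iron uptake in most cells. Its log2 signal was 12.00, 12.64 and 12.18 on IFNa replicates 1, 2 and 3, and 9.75 and 9.03 on vehicle replicates 2 and 3. All 3 IFNa arrays were above both vehicle arrays, and the lowest IFNa array exceeded the highest vehicle array by 2.25. The means were 12.27 ± 0.33 (SD, n = 3) and 9.39 ± 0.51 (SD, n = 2). The difference of 2.89 ± 0.38 (moderated SE, limma) corresponds to a factor of 7.39. Of all genes, 101 had a higher difference, and 0.991% had a larger one in either direction. Of the 637 genes at or above the mean signal of Tfrc, 11 had a higher difference. It ranged from 2.52 to 3.25 when single arrays were left out. The composition of the sorted cells was not measured. A change in the number of cells that express a gene and a change in RNA per cell cannot be told apart.

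The region around the starts of Tfrc is shown because this gene carried the largest difference of the 9 and the cells had received an interferon. RefSeq (GRCm38.p6) gives 2 start sites for mouse Tfrc, and the table used here holds 300 bases around each, from 250 before to 50 after the start. The windows share 74 bases. Sequences are on the plus strand, 5′ to 3′, and capitals mark the letters ACGTG, the core of a hypoxia response element, and TGACG, the core of a cyclic AMP response element.
Tfrc, chr16:32608646-32608945: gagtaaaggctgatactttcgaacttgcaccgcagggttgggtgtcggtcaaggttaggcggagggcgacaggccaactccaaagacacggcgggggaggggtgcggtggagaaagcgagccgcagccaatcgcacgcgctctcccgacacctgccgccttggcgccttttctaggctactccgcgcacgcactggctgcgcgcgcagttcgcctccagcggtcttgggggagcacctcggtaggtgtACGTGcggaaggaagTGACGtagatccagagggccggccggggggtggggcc
Tfrc, chr16:32608872-32609171: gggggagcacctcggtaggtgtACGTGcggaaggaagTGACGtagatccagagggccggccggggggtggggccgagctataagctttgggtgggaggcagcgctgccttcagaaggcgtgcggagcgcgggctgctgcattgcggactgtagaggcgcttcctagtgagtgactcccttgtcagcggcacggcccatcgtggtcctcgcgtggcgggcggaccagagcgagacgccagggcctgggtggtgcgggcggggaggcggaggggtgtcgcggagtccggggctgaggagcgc

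Both capitalised motifs lie in the shared stretch, so they are found once in the sequence and counted in both windows. ACGTG is present on either strand in 19.6% of all 32851 promoter windows and TGACG in 20.8%. These motifs were chosen after the sequence was seen. The interferon-stimulated response element (GAAA, any 2 bases, GAAA, in 3.44% of all windows), TTCNNNGAA (gamma-activated site, 8.3%) and CACGTG (E-box, which contains ACGTG, 7.15%) were in none of the 11 windows found for 6 of the 9 genes, on either strand. TGANNNNGC, the core of the antioxidant response element, was in 1 window each of Aco1, Slc11a1 and Steap3, and is in 41.3% of all windows. TGACG was also in 1 window of Fth1. No window was in the table for Slc11a2, Slc40a1 and Hmox1.

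**Figure D1:**
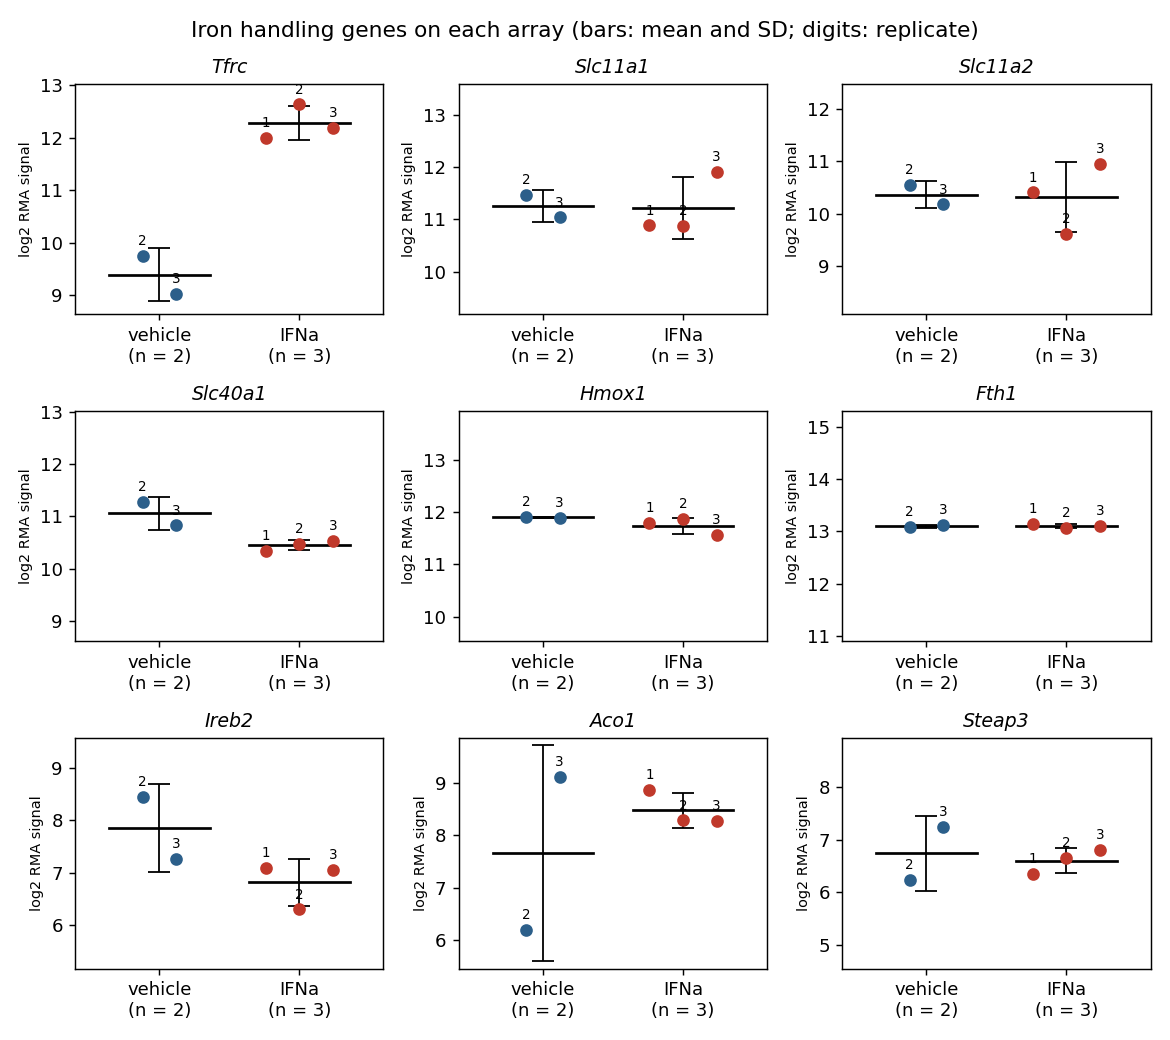
Log2 RMA signal (y axis) of the 9 iron handling genes in the vehicle (n = 2, blue) and IFNa (n = 3, red) groups. Each point is an array with its replicate number, and bars are the mean and SD. Every panel spans the same log2 range. Tfrc is the gene whose groups stand farthest apart, with IFNa arrays from 12.00 to 12.64 and vehicle arrays at 9.75 and 9.03.

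The transporter and reductase genes Slc11a2, Steap3 and Slc11a1 did not share the pattern of Tfrc. Slc11a2 encodes DMT1, the transporter that moves ferrous iron out of the endosome. Its signal was 10.41, 9.62 and 10.95 on IFNa replicates 1, 2 and 3 and 10.55 and 10.18 on vehicle replicates 2 and 3. The vehicle arrays lay within the range of the IFNa arrays, and the difference was -0.04 ± 0.49. Steap3 encodes the endosomal ferrireductase that works with the transferrin receptor in erythroid precursors. It read 6.34, 6.65 and 6.81 with IFNa and 6.24 and 7.25 with vehicle, so that the IFNa arrays lay between the vehicle arrays. Its difference of -0.14 ± 0.51 became -0.65 when vehicle replicate 2 was left out and 0.36 when vehicle replicate 3 was. Slc11a1 encodes NRAMP1, a metal transporter of the phagosome in macrophages. It read 10.89, 10.88 and 11.91 with IFNa and 11.47 and 11.04 with vehicle, again with the vehicle arrays inside the IFNa range. Its difference was -0.03 ± 0.42.

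Among the genes of storage, export and heme breakdown, the ferritin gene varied least. Fth1, the ferritin heavy chain, read 13.14, 13.06 and 13.11 with IFNa and 13.08 and 13.12 with vehicle. All 5 arrays lay within 0.084 of each other, and the difference was 0.0031 ± 0.16. Its sign was negative in 5 of 15 other ways of processing the values, with a range of -0.13 to 0.10. The iron exporter ferroportin, encoded by Slc40a1, read 10.35, 10.48 and 10.54 with IFNa and 11.28 and 10.83 with vehicle. All IFNa arrays were below both vehicle arrays, with a gap of 0.29 between the groups. The difference of -0.60 ± 0.35, a factor of 1.52, became -0.37 when vehicle replicate 2 was left out and -0.83 when vehicle replicate 3 was. Hmox1 encodes heme oxygenase 1, which frees iron from heme. It read 11.79, 11.86 and 11.56 with IFNa and 11.90 and 11.89 with vehicle. The IFNa arrays were lower by as little as 0.026, and the difference was -0.16 ± 0.26.

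The genes of the iron regulatory proteins had differences of opposite sign, and neither kept its size when a vehicle array was left out. Ireb2 encodes IRP2, which is degraded when iron is plentiful. It read 7.10, 6.30 and 7.05 with IFNa and 8.45 and 7.27 with vehicle. The IFNa arrays were all lower, with a gap of 0.17, and the difference of -1.04 ± 0.58 was a factor of 2.06. Leaving out vehicle replicate 2 gave -0.45, and leaving out vehicle replicate 3 gave -1.63. Aco1 encodes IRP1, which is also the cytosolic aconitase when it carries an iron-sulfur cluster. It read 8.87, 8.28 and 8.28 with IFNa, and 6.20 and 9.11 on vehicle replicates 2 and 3. The IFNa arrays lay between the vehicle arrays. The difference of 0.82 ± 0.87 turned to -0.64 when vehicle replicate 2 was left out and became 2.28 when vehicle replicate 3 was.

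Tfrc was thus the only gene of the 9 whose IFNa arrays were all higher, and 3 others (Slc40a1, Ireb2 and Hmox1) had IFNa arrays that were all lower. In 5 of the 9 the groups overlapped. Over all genes the groups did not overlap in 25.6%. Since the 9 were named with this contrast known, nothing is read from their share. The median difference of the other 8 was -0.09, against -0.04 for all genes. Of these 8, 5 differed by less than 0.5. The median size of difference over all genes was 0.34, so most genes also differed by less than 0.5. Differences of 1 or more in size were found for 2 of the 9 genes, Tfrc and Ireb2, and for 18.7% of all genes. None of the 9 was below 6.20 on any array, so all stood above 3.22, the 20th percentile of all values.

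**Figure D2:**
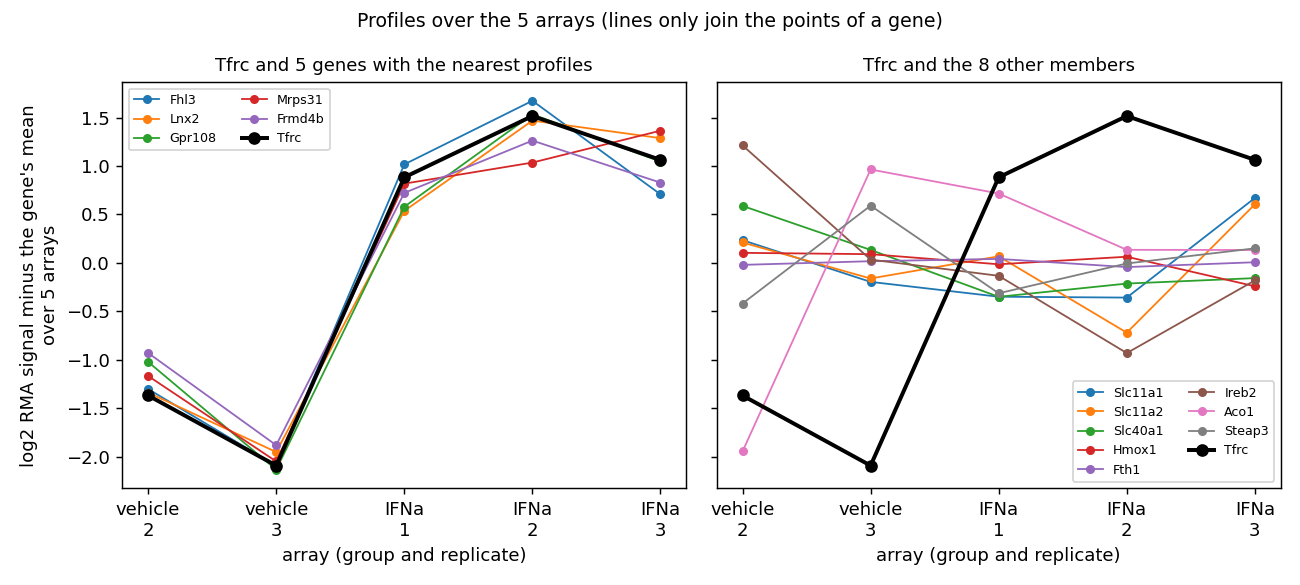
Log2 RMA signal minus the gene's own mean over the 5 arrays (y axis) for each array (x axis, group and replicate). On the left Tfrc (black) is drawn with the 5 genes of nearest profile, and on the right with the 8 other iron handling genes. The 5 near genes share the low vehicle and high IFNa arrays of Tfrc, and none of the 8 iron genes does.

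The profile of Tfrc was set against those of the other 17755 genes by the root mean square distance between their log2 signals over the 5 arrays, each gene centred on its own mean. The nearest were Fhl3 (distance 0.19), Lnx2 (0.20), Gpr108 (0.21), Mrps31 (0.27) and Frmd4b (0.28). Fhl3, a LIM domain protein, read 9.71, 10.37 and 9.40 with IFNa and 7.39 and 6.60 with vehicle. The ubiquitin ligase gene Lnx2 read 7.13, 8.06 and 7.88 with IFNa and 5.25 and 4.64 with vehicle. The differences of Fhl3 and Lnx2 were 2.83 and 2.74, and those of Gpr108, Mrps31 (a mitochondrial ribosomal protein) and Frmd4b were 2.63, 2.68 and 2.34. None of the 5 is on the iron lists used here. The 8 other iron genes were at distances of 1.45 (Fth1) to 1.99 (Ireb2), at places 6647 to 15887 in that order. With 5 arrays this likeness is a description and largely follows from the difference between the groups. Distances of the 84 further genes on the iron lists are not given here. Among those, Steap4 and Fech had the highest differences, 3.39 and 2.85, while 43 of the 84 were above 0 and 41 below.

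The wider iron pathway held no gene that passed the threshold, an adjusted p under 0.05 in limma over all genes (Benjamini-Hochberg). Of 84 measured genes in 6 lists, the 9 genes above left out, 0 were called higher and 0 lower. Over all 17756 genes 0.0169% were called higher and 0.118% lower. At an unadjusted p under 0.05, 6 of the 84 (7.14%) were higher and 4 (4.76%) lower, against 4.52% and 5.51% of all genes. These shares of all genes are also the background for the counts of each list below. The groups did not overlap for 25 of the 84 (29.8%), against 25.6% of all genes. Of the 25, 11 were higher with IFNa and 14 lower. The median difference was 0.02, with 43 genes above 0 and 41 below. Differences of 1 or more in size were found for 18 of the 84 (21.4%), against 18.7% of all genes. A fit without one of the vehicle arrays rests on 1 array in that group, so nothing is read from counts in such fits.

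**Figure D3:**
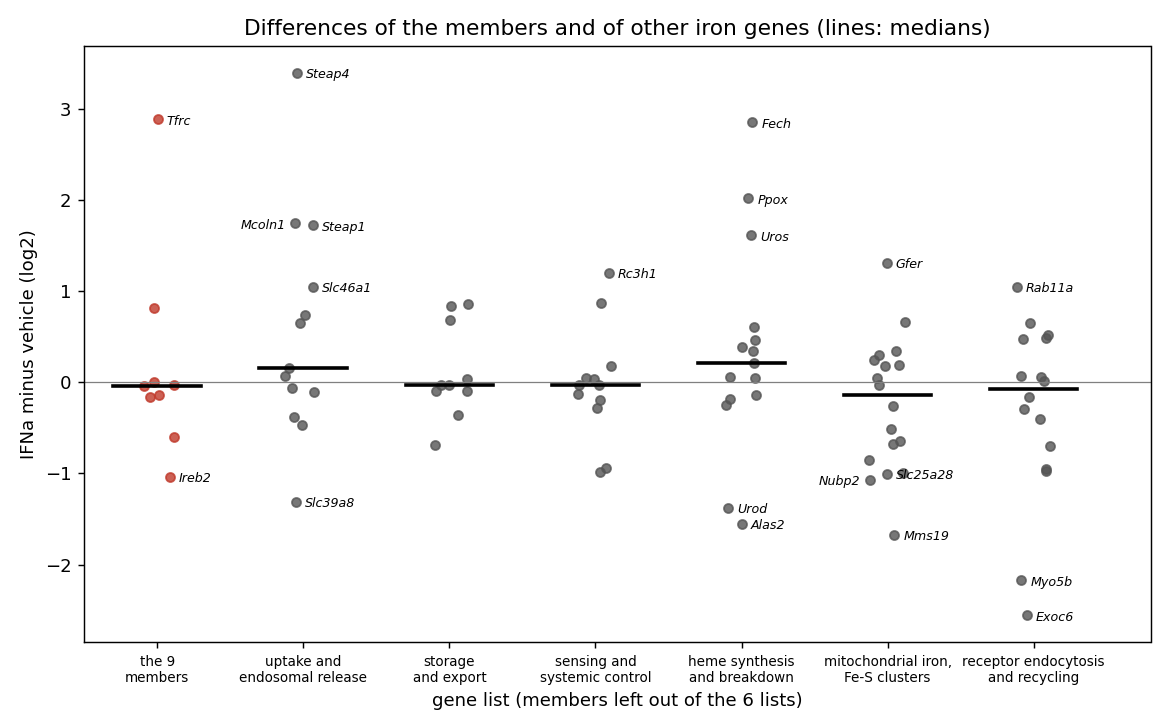
Difference between IFNa and vehicle in log2 RMA signal (y axis) for the 9 iron handling genes (red) and the other genes of 6 iron lists (grey), with lines at the medians and names at differences of 1 or more. Points spread to both sides of 0 in every list, and Steap4 at 3.39 is the only listed gene beyond Tfrc at 2.89.

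Of 13 other genes of uptake and endosomal release, 8 were above 0 and 5 below, with 0 called by limma and 1 at an unadjusted p under 0.05. That gene was Steap4, a metalloreductase of the same family as Steap3. It read 7.72, 8.02 and 9.19 on IFNa replicates 1, 2 and 3 and 4.71 and 5.13 on vehicle replicates 2 and 3, so that every IFNa array was higher. Its difference of 3.39 ± 0.60 was the only one of the 84 larger than that of Tfrc, and it missed the threshold (adjusted p = 0.149, limma, 0.111 to 0.393 over the alternatives). The metal importer Slc39a8 (ZIP8) had all IFNa arrays below the vehicle arrays and differed by -1.31 ± 0.55 (adjusted p = 0.502, limma). Tfr2, the second transferrin receptor, which liver and erythroid cells express, differed by 0.07 ± 0.41 from a vehicle mean of 3.07, below the 20th percentile. The hemoglobin scavenger receptor Cd163 differed by -0.07 ± 0.40. The sign of Tfr2 and that of Cd163 changed with the processing. The list's median was 0.16. Transferrin itself (Trf) was not analysed here.

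Of 10 other genes of storage and export, none was called by limma, and 0 had an unadjusted p under 0.05 (median -0.03). Ncoa4, the receptor that delivers ferritin to the lysosome, had IFNa arrays at 10.52, 11.72 and 11.15 and vehicle arrays at 10.45 and 10.09. Its groups came within 0.1 of each other and its difference was 0.86 ± 0.44 (adjusted p = 0.602, limma). Flvcr2, of a family of heme and choline transporters, differed by 0.68 ± 0.35 at a dim signal. The ferritin light chain gene Ftl1 was not analysed here.

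Among 12 other genes of iron sensing and systemic control, 0 were called by limma and 1 had an unadjusted p under 0.05 (median -0.03). This was Rc3h1 (Roquin-1), an RNA-binding protein that promotes decay of messengers with stem-loops, the Tfrc messenger among them. It read 11.03, 10.41 and 10.84 with IFNa and 9.63 and 9.48 with vehicle, with all IFNa arrays higher, and differed by 1.20 ± 0.39 (adjusted p = 0.378, limma). Zc3h12a (Regnase-1), an RNase that cleaves the Tfrc messenger, differed by 0.87 ± 0.55 with overlapping groups. Fbxl5, the iron-sensing ubiquitin ligase subunit that targets IRP2, had all IFNa arrays below the vehicle arrays and differed by -0.99 ± 0.57 (adjusted p = 0.653, limma).

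The heme list held the most genes at an unadjusted p under 0.05, 4 of 15, of which 3 were higher and 1 lower. Those were 20% and 6.67% of the list, against 4.52% and 5.51% of all genes. With so few genes, nothing is read from these shares. In this list limma called 0, and the median was 0.21. Fech, ferrochelatase, puts iron into protoporphyrin as the last step of heme synthesis. It read 9.42, 9.64 and 10.42 with IFNa and 8.25 and 5.70 with vehicle. Every IFNa array was higher, but the vehicle arrays were far apart, and the difference of 2.85 ± 0.82 (adjusted p = 0.34, limma) was 4.13 with vehicle replicate 2 left out and 1.58 with vehicle replicate 3 left out. The earlier enzyme Uros, uroporphyrinogen III synthase, differed by 1.61 ± 0.53 (adjusted p = 0.384, limma). Ppox (2.02 ± 0.77) was the other with IFNa higher, and Urod (-1.38 ± 0.47), which acts just after Uros, was the one with IFNa lower. Alas2, the first and erythroid-specific enzyme, read 4.17, 3.72 and 4.89 with IFNa and 3.97 and 7.66 with vehicle. Its difference of -1.55 ± 1.01 rested on vehicle replicate 3, and was 0.29 without it. Hmox2, the constitutive heme oxygenase, differed by 0.06 ± 0.34, and Bach1, the heme-sensing repressor of Hmox1, by -0.14 ± 0.55. Both changed sign with the processing.

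In the mitochondrial iron and iron-sulfur cluster list, 0 of 18 genes were called by limma and 1 had an unadjusted p under 0.05 (median -0.14). Mms19 and Ciao1, which deliver iron-sulfur clusters to cytosolic and nuclear proteins, were both lower on every IFNa array. They differed by -1.68 ± 0.64 (adjusted p = 0.448, limma) and -0.99 ± 0.43 (adjusted p = 0.518, limma). Of the 18, 8 were above 0 and 10 below. The groups did not overlap for 5 of the 18 (27.8%), 2 with IFNa higher and 3 lower, against 25.6% of all genes. The mitochondrial iron importer Slc25a37 was not analysed here.

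Of 16 genes of transferrin receptor endocytosis and recycling, 0 were called by limma and 3 had an unadjusted p under 0.05 (median -0.08). Exoc6, an exocyst subunit needed for normal transferrin cycling in red cell precursors, read 7.18, 8.06 and 5.11 with IFNa and 9.16 and 9.51 with vehicle. All IFNa arrays were lower, with a difference of -2.56 ± 0.89 (adjusted p = 0.412, limma). Myo5b, a motor of recycling endosomes, also had lower IFNa arrays throughout and differed by -2.17 ± 0.74 (adjusted p = 0.404, limma). Its vehicle arrays read 4.40 and 7.13, and the difference was -3.54 without vehicle replicate 2, which leaves 1 vehicle array. The clathrin adaptor subunit Ap2m1 was the third gene, with a difference of 0.52 ± 0.21. Exoc6 and Myo5b, the genes of this list with the largest differences in size, were thus on the other side of 0 from Tfrc.

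Gene groups that often accompany transferrin receptor expression were set beside it. Of 13 proliferation genes, limma called 0, and 1 reached an unadjusted p under 0.05 (median -0.13). Mean signals over the list were 9.35 to 9.99 on IFNa arrays and 9.80 and 9.82 on vehicle arrays. Mki67, a marker of cycling cells, differed by -0.13 ± 0.24, the helicase subunit Mcm6 by 1.13 ± 0.39, and Top2a by -1.51 ± 0.64. In the MYC and cell growth list, 0 of 12 were called by limma and 1 had an unadjusted p under 0.05 (median -0.12). That gene was Odc1, the polyamine synthesis enzyme, which read 11.81, 11.00 and 10.56 with IFNa and 9.11 and 9.44 with vehicle. Its difference was 1.85 ± 0.48 (adjusted p = 0.298, limma), and Myc itself differed by 0.63 ± 0.44 with overlapping groups.

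Hypoxia targets (13 genes, median -0.10) had 0 called by limma and 0 at an unadjusted p under 0.05. Egln3, an oxygen-sensing hydroxylase, differed by -2.40 ± 1.05 with vehicle arrays at 4.52 and 8.48. Without vehicle replicate 2, which leaves 1 vehicle array, it was at -4.37. Ndrg1 differed by -0.82 ± 0.37. Of 10 targets of NRF2, the regulator of Hmox1 and ferritin, 0 were called by limma and 1 had an unadjusted p under 0.05 (median 0.16). Nqo1 differed by 1.25 ± 0.52 and Txnrd1 by 0.64 ± 0.34, both higher on every IFNa array. Of the 10 NRF2 targets, 7 were above 0 and 3 below, and 8 differed by less than 0.5. Another 1 of the 10 was lower on every IFNa array. In the type I interferon response list, limma called 0 of 16 genes, 14 differed by less than 0.5, and the count at an unadjusted p under 0.05 was 0. The list's median was 0.04, with 10 genes above 0 and 6 below. Its median size of difference was 0.13, against 0.34 for all genes, so the list as a whole was not higher on the IFNa arrays. Mx2 differed by 0.47 ± 0.44, or -0.07 without vehicle replicate 3, and Dhx58 by -1.09 ± 0.90.

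Markers of cells that the sort could hold were also compared, since erythroid cells, macrophages and cycling cells differ in Tfrc. Of 66 measured markers, 0 were called by limma and 9 had an unadjusted p under 0.05. Over all genes, 4.52% were higher and 5.51% lower at that unadjusted p, so nothing is read from the 9. The 12 measured erythroid markers of 14 had mean signals of 4.84 to 5.80 with IFNa and of 5.35 and 5.88 with vehicle, with 0 at an unadjusted p under 0.05, 2 genes above 0 and 10 below (median -0.23). Gata1, the erythroid master regulator, differed by -0.35 ± 0.36, the erythropoietin receptor Epor by -0.05 ± 0.46, with a sign that changed with the processing, and the globin Hba-a1 by -0.58 ± 0.30 near the 20th percentile. The 2 erythroid markers above 0 were Ermap (1.35 ± 0.98) and Klf1 (0.62 ± 0.48), both with overlapping groups. The 14 macrophage markers had means of 9.77 to 10.31 with IFNa and of 10.30 and 10.42 with vehicle. Of these, 10 differed by less than 0.5, as most of all genes did (median -0.07). Csf1r differed by -0.16 ± 0.14, Mertk by 0.82 ± 0.40 with all IFNa arrays higher, and Timd4, the largest in size, by -2.54 ± 0.91. The endothelial list (10 genes) had means of 5.09 to 6.39 and of 5.86 and 6.61, and 8 of the 10 were below 0 (median -0.69). Erg was at -1.60 ± 0.68 with all IFNa arrays lower, Cdh5, the sorted VE-cadherin, at -0.95 ± 0.96, or 0.18 without vehicle replicate 2, and Tek, above 0, at 2.15 ± 0.72. The stem cell and sort list (9 of 10) had means of 6.54 to 6.94 and of 6.72 and 7.15, with 4 genes above 0 and 5 below (median -0.25). Ptprc (CD45) was at -2.02 ± 0.75, Cd34 at -2.61 ± 0.63 and Gfi1, with all IFNa arrays higher, at 2.67 ± 1.39, or 1.15 without IFNa replicate 2. The granulocyte and monocyte list (6 of 8) had means of 7.53 to 9.20 and of 7.37 and 7.55, with 4 genes above 0 and 2 below (median 0.68). Prtn3 was at 1.15 ± 0.47 and Ctsg, with all IFNa arrays lower, at -0.39 ± 0.24. S100a8 had a larger difference than Tfrc, 3.07 ± 1.28, but its groups overlapped. It was at 4.71 without vehicle replicate 2 and at 1.43 without vehicle replicate 3. Megakaryocyte (7 of 8) means were 5.55 to 5.89 and 5.31 and 6.08, with 4 genes above 0 and 3 below (median 0.06). Vwf was at -0.88 ± 0.33 and Pf4, with all IFNa arrays higher, at 0.54 ± 0.26. Mesenchymal (8 genes) means were 4.61 to 6.25 and 5.21 and 5.77, with 4 genes on each side of 0 (median 0.39). Tagln was at -1.73 ± 0.50 and Pdgfrb at 1.47 ± 0.92, or 0.0094 without vehicle replicate 2. The part of these cells in the Tfrc difference was not tested.

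**Figure D4:**
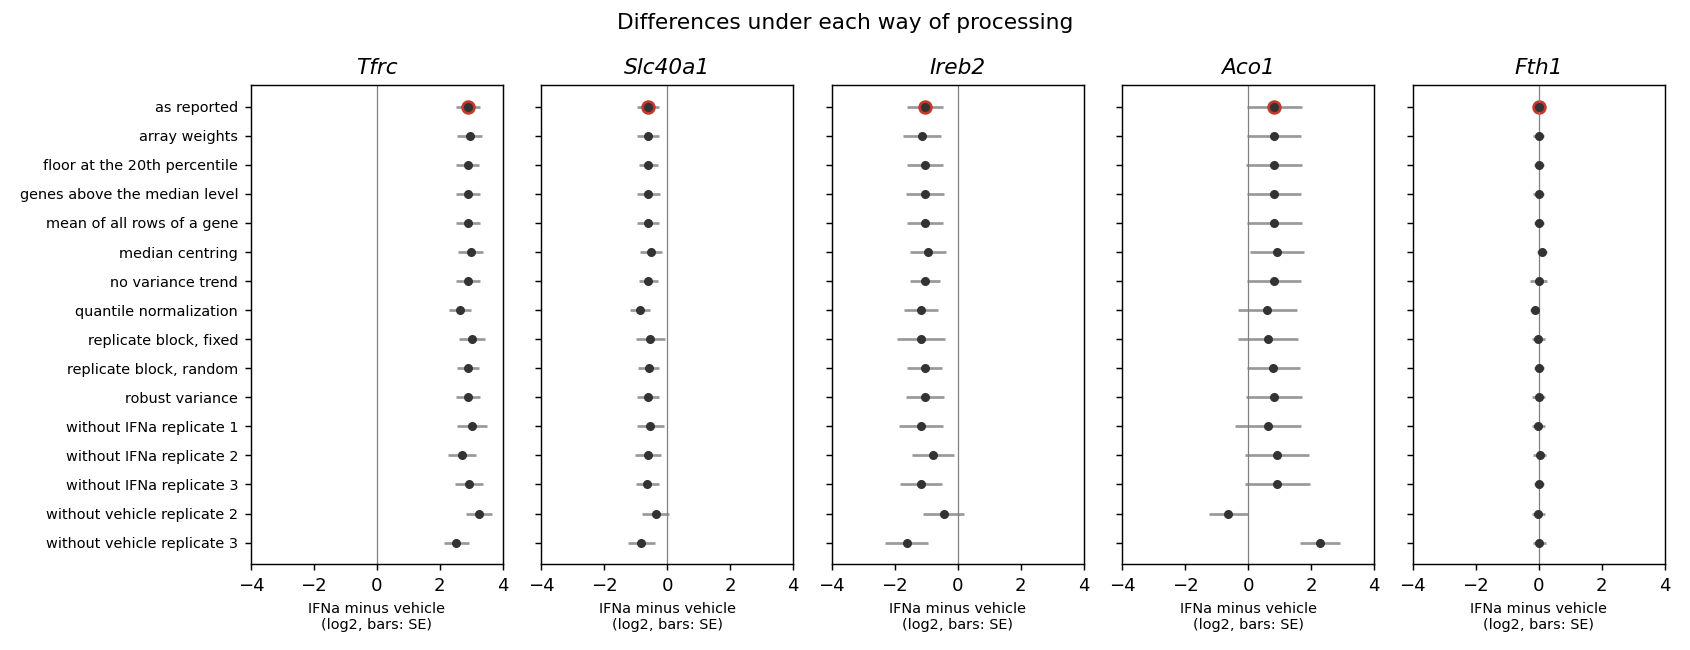
Difference between IFNa and vehicle in log2 RMA signal (x axis) of 5 iron handling genes for each way of processing the values (y axis). Points are the fitted differences, the red ring marks the value as reported, and bars are the moderated SE. Tfrc stays between 2.52 and 3.25, Fth1 stays near 0, and Aco1 changes side with the vehicle array left out.

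The difference of Tfrc kept its sign in all 15 other ways of processing the values. So did the differences of Slc40a1 (-0.86 to -0.37), Ireb2 (-1.63 to -0.45) and Hmox1 (-0.39 to -0.07). The differences of Slc11a1, Slc11a2, Fth1, Aco1 and Steap3 changed sign in at least 1 of the 15. The 15 are not separate checks of sign. The floor, the filter on low values, the mean of a gene's rows and the other variance settings left these differences at their reported values. The fixed replicate block gave the same differences as leaving out IFNa replicate 1 (3.02 for Tfrc).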

How the data were processed

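The deposited table held log2 signals of 20881 probe sets on 5 arrays, made by the authors with RMA according to the submitters' processing notes. Not given in the sources used here are the software version, the settings and how nearly 1 probe set per gene was chosen. Values ran from -1.95 to 15.64, and array medians from 4.98 to 5.15. The platform annotation gave 1 symbol for 17838 rows and several for 244. Where rows shared a symbol, the row of highest mean signal stood for the gene, which left 17756 genes.

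Groups came from the sample titles. IFNa was compared with vehicle with limma 3.58.1 in R 4.3.3 (lmFit, eBayes with a mean-variance trend, two-sided, Benjamini-Hochberg over all genes). The labels call the replicates biological, and their origin is not given further. The number of arrays limits the precision. In 20 simulated sets for this comparison (17756 genes) the fit called 0.4% of genes with a simulated log2 change of 1, 13.5% at 2, 39.8% at 3 and 67.2% at 4. Each set had 200 changed genes and independent normal errors, and the rates hold for that setting only.

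The 9 genes and all lists were chosen with earlier results of these data known. The lists are 6 of iron pathway genes, 5 of accompanying responses (NRF2, hypoxia, MYC, proliferation, type I interferon) and 7 of cell type markers. Named genes are the 9, called genes or else the 2 with the smallest p of each pathway and response list (1 of each marker list), 19 fixed by name, of which 3 were not analysed here, and the 5 nearest Tfrc. Ppox, Urod, Ap2m1, Mertk, Erg, Gfi1, S100a8, Ctsg, Pf4 and Pdgfrb were added after their values were seen. So were Ermap and Klf1, which were not followed under the alternatives. Alternatives were the mean of a gene's rows, a filter on and a floor for low values, other variance settings, array weights, quantile normalization, median centring, replicate blocks, each array left out and a looser threshold. Promoters are from RefSeq (GRCm38.p6).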

Additional observations from a re-analysis of the deposited data

How the results depend on the processing

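Tfrc differed by 2.89 and stayed within 2.52 to 3.25. Of the iron pathway genes, 0 were called higher and 0 lower in limma under each alternative, except for 1 lower without vehicle replicate 2, so that leaving out an array gave 0 to 1 lower. Over all genes 3 were called higher and 21 lower. These counts were 0 and 0 with values floored at the 20th percentile, 1 and 0 for genes above the median level, 1 and 2 without a variance trend, 19 and 43 at an adjusted p under 0.1, and 0 to 37 higher and 0 to 144 lower with an array left out. The cause was not tested, beyond fewer genes or arrays. Replicate numbers 2 and 3 occur in both groups. The correlation of their deviations from the group means was 0.0024 for number 2 and 0.043 for number 3. With 2 vehicle arrays, their deviations are equal in size and opposite in sign, so these are not separate checks. The consensus correlation of a random replicate block was 0.12. No pairing was assumed in the reported fit, and whether the replicates are paired cannot be settled here. A fixed replicate block gave 0 and 0 (Tfrc 3.02) and a random replicate block 9 higher and 27 lower (Tfrc 2.90).

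Of the 41 genes that the rule took from the lists, 8 changed sign. None of the 15 others did (the 5 nearest Tfrc and those added after their values were seen, Ermap and Klf1 left out). With array weights Tfr2 was at -0.0088, Bach1 at 0.018 and Epor at 0.070. With quantile normalization Hmox2 was at -0.21, Epor at 0.047 and Cd163 at 0.0069, and with median centring Epor was at 0.043 and Cd163 at 0.029. With the fixed replicate block Hmox2 was at -0.047, Epor at 0.21 and Cd163 at 0.047. With arrays left out, ranges that crossed 0 were Tfr2 -0.27 to 0.41, Hmox2 -0.059 to 0.20, Bach1 -0.51 to 0.11, Alas2 -3.40 to 0.29, Epor -0.42 to 0.21, Cd163 -0.26 to 0.13, Cdh5 -2.09 to 0.18 and Mx2 -0.069 to 1.02. The lone vehicle array is then assumed to vary like the IFNa arrays.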
